A study of Mus musculus with 40 samples.

Results

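Matrix metalloproteinases (MMPs) and their tissue inhibitors (TIMPs) were followed in primary tumors of 2 intraductal mouse models of triple-negative breast cancer. The set held 10 genes chosen by symbol, 7 MMPs (Mmp2, Mmp3, Mmp9, Mmp12, Mmp13, Mmp14 and Mmp19) and 3 TIMPs (Timp1, Timp2 and Timp3), and all 10 were found among the 14318 genes of the RNA-sequencing table. Luciferase-expressing 4T1 or 66cl4 mammary tumor cells had been injected into the ducts of wild-type female BALB/c mice, so that each model stands for 1 cell line. By the paper's methods these were lactating mothers inoculated after their pups had been weaned, a condition shared by all groups. Tumors were collected at 5 w post-inoculation (p.i.) from mice that were untreated or had received anti-PD-1 (200 µg per injection), chitin (1 mg per injection) or chitin + anti-PD-1. Of the 8 groups, 7 held 5 tumors, and the untreated 4T1 group held 4 because the authors had removed its tumor 3 for RNA degradation. This gave 19 4T1 and 20 66cl4 tumors.

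MMPs are zinc-dependent proteases that cleave proteins of the extracellular matrix and are made as inactive zymogens. Collagenases such as Mmp13 cut fibrillar collagen, gelatinases (Mmp2 and Mmp9) degrade denatured and basement-membrane collagen, stromelysins such as Mmp3 act on proteoglycans and other MMP zymogens, and Mmp12 is the elastase best known from macrophages. Mmp14 is anchored in the cell membrane and activates pro-Mmp2 in a complex that includes Timp2. TIMPs bind active MMPs and block them, and Timp3 is retained in the matrix. In breast tumors these genes are transcribed by tumor cells as well as by fibroblasts, macrophages and neutrophils.

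Library depth, as reads in the table, ranged from 5105898 to 14800352 per tumor with a median of 6590274. The 66cl4 chitin and chitin + anti-PD-1 groups had medians of 10250227 and 8985408 reads, against 6064018 in untreated 66cl4 tumors. All 10 genes had reads in every tumor. The lowest was Mmp3 with 8 reads in 1 66cl4 tumor, so the smallest values carry a large counting error. Levels below are normalized counts (reads divided by a size factor per tumor) or variance-stabilized (VST) values, a log2-like scale on which differences of low genes are compressed. A gene was called where its adjusted limma p was under 0.05. In bulk tumors, fewer cells of a type and less RNA per cell cannot be told apart.

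Mmp13, Mmp12 and Mmp3 lie in 1 cluster on chromosome 9, at chr9:7272514-7283333, chr9:7344397-7360461 and chr9:7445822-7455975 (RefSeq, GRCm38.p6, plus strand). The sequence before a start site of each is shown, and its relation to how these genes varied between tumors was not tested. Capitals mark the motif TGAGTCA or TGACTCA, the same letters read on either strand, which is the site classically bound by AP-1 (Fos and Jun) dimers. Each line gives the 100 bases before a RefSeq start, 5′ to 3′, at chr9:7272414-7272513 for Mmp13, chr9:7445722-7445821 for Mmp3 and chr9:7347274-7347373 for the downstream of the 2 starts of Mmp12.
Mmp13: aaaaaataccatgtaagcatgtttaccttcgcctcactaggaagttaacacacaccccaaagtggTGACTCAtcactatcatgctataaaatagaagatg
Mmp3: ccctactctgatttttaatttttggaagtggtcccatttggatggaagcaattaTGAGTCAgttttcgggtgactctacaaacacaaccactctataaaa
Mmp12: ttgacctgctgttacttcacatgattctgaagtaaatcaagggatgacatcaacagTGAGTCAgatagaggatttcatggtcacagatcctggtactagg
The motif began 35, 46 and 44 bases before the start, respectively. The windows searched for the 10 genes were 300 bases long (250 before to 50 after a start). TATAAA on the strand of the gene was present in the same 3 of these windows, and it did not overlap the motif. It began 16 bases before the start for Mmp13 and 7 before it for Mmp3, but at base 5 counted from the start as base 1 for Mmp12, beyond the bases shown. The letters of the AP-1 site were not in the windows of Mmp14, Timp1, Timp2 or Timp3, nor at the upstream start of Mmp12. Outside the 10 genes, the window of Mmp10 on chromosome 9 held both motifs and that of Mmp8 held neither. Of all 32851 RefSeq windows, 5.2% held the AP-1 letters, 8.32% held TATAAA and 0.624% held both. Windows were given for 7 of the 10 genes, with none for Mmp2, Mmp9 and Mmp19. A match describes the letters and is not a measured binding site.

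The first question was how the models differ before treatment. In untreated tumors 6 of the 7 MMP and TIMP genes that passed the test were higher in 4T1, and only Timp2 was lower. This comparison separates the models widely in general: 55.8% of all genes were called, 28.7% higher and 27.1% lower in 4T1, so 7 of 10 is read against that background. The median absolute VST difference was 1.52 over the 10 genes and 0.289 over all genes. The untreated tumors of the 2 models did not overlap for 43.1% of all genes, and each lack of overlap below is read against that share.

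Mmp13 had the widest separation. Its normalized counts were 1824, 640, 808 and 2220 in the 4 untreated 4T1 tumors and 48.8, 32.1, 23.7, 29.6 and 40.0 in the 5 untreated 66cl4 tumors. Every 4T1 tumor was above every 66cl4 tumor, and the means were 1373 ± 770 (SD, n = 4) and 34.9 ± 9.75 (SD, n = 5), a 39.4-fold ratio. The VST difference was 3.33 ± 0.62 (SE, adjusted p = 2.85e-05). Mmp3, the stromelysin, had 974, 347, 764 and 1400 normalized counts in 4T1 and 78.8, 105, 48.4, 43.8 and 20.02 in 66cl4. The groups did not overlap, with means 14.7-fold apart and a VST difference of 2.52 ± 0.47 (SE, adjusted p = 2.79e-05).

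Mmp12, the third gene of the chromosome 9 cluster, had 693, 1292, 884 and 870 normalized counts in untreated 4T1 tumors. The untreated 66cl4 tumors had 367, 125, 107, 85.0 and 669. The highest 66cl4 tumor came close to the lowest 4T1 tumor without reaching it. The VST difference was 1.65 ± 0.53 (SE, adjusted p = 0.00891), with means 3.45-fold apart.

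Mmp2, the gelatinase activated by Mmp14, had 549, 514, 1566 and 1550 normalized counts in untreated 4T1 and 80.1, 146, 368, 121 and 331 in untreated 66cl4 tumors. The groups did not overlap, although both held a low and a high set of tumors. Its VST difference was 1.79 ± 0.55 (SE, adjusted p = 0.00602), with means 4.99-fold apart. Mmp14 had 4247, 5018, 5554 and 5613 normalized counts in 4T1 against 1538, 1638, 1904, 1768 and 2593 in 66cl4. It had the smallest p of the set, with a VST difference of 1.39 ± 0.17 (SE, adjusted p = 1.20e-08) and means 2.70-fold apart.

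Among the inhibitors, Timp3 and Timp2 differed in opposite directions. Timp3 had 557, 460, 1033 and 1062 normalized counts in untreated 4T1 and 130, 146, 159, 158 and 175 in untreated 66cl4 tumors, with a VST difference of 1.68 ± 0.30 (SE, adjusted p = 1.62e-05). Timp2 had 3246, 5634, 4758 and 3772 in 4T1 and 6806, 7796, 6594, 6516 and 7416 in 66cl4, so that all 4T1 tumors were below all 66cl4 tumors. Its VST difference was -0.70 ± 0.12 (SE, adjusted p = 9.52e-06), with the 66cl4 mean 1.61-fold above the 4T1 mean.

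Timp1, Mmp19 and Mmp9 did not pass the test in untreated tumors. Timp1 was above all 5 66cl4 tumors in all 4 4T1 tumors, with 593, 541, 1097 and 556 against 434, 356, 470, 408 and 489 normalized counts, but its VST difference of 0.52 ± 0.28 (SE) had an adjusted p of 0.112. When the fit held only the untreated tumors of both models, the adjusted p was 0.0227. Over all genes, 43.1% had no overlap between these groups. Mmp19 had a VST difference of 0.21 ± 0.22 (SE, adjusted p = 0.422) with overlapping groups. Mmp9, the gelatinase of neutrophils and macrophages, had 823, 740, 567 and 4050 normalized counts in 4T1 and 2026, 1615, 1343, 1895 and 2141 in 66cl4. One 4T1 tumor was above all 66cl4 tumors and the other 3 were below them, and the VST difference was -0.62 ± 0.61 (SE, adjusted p = 0.398).

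**Figure D1:**
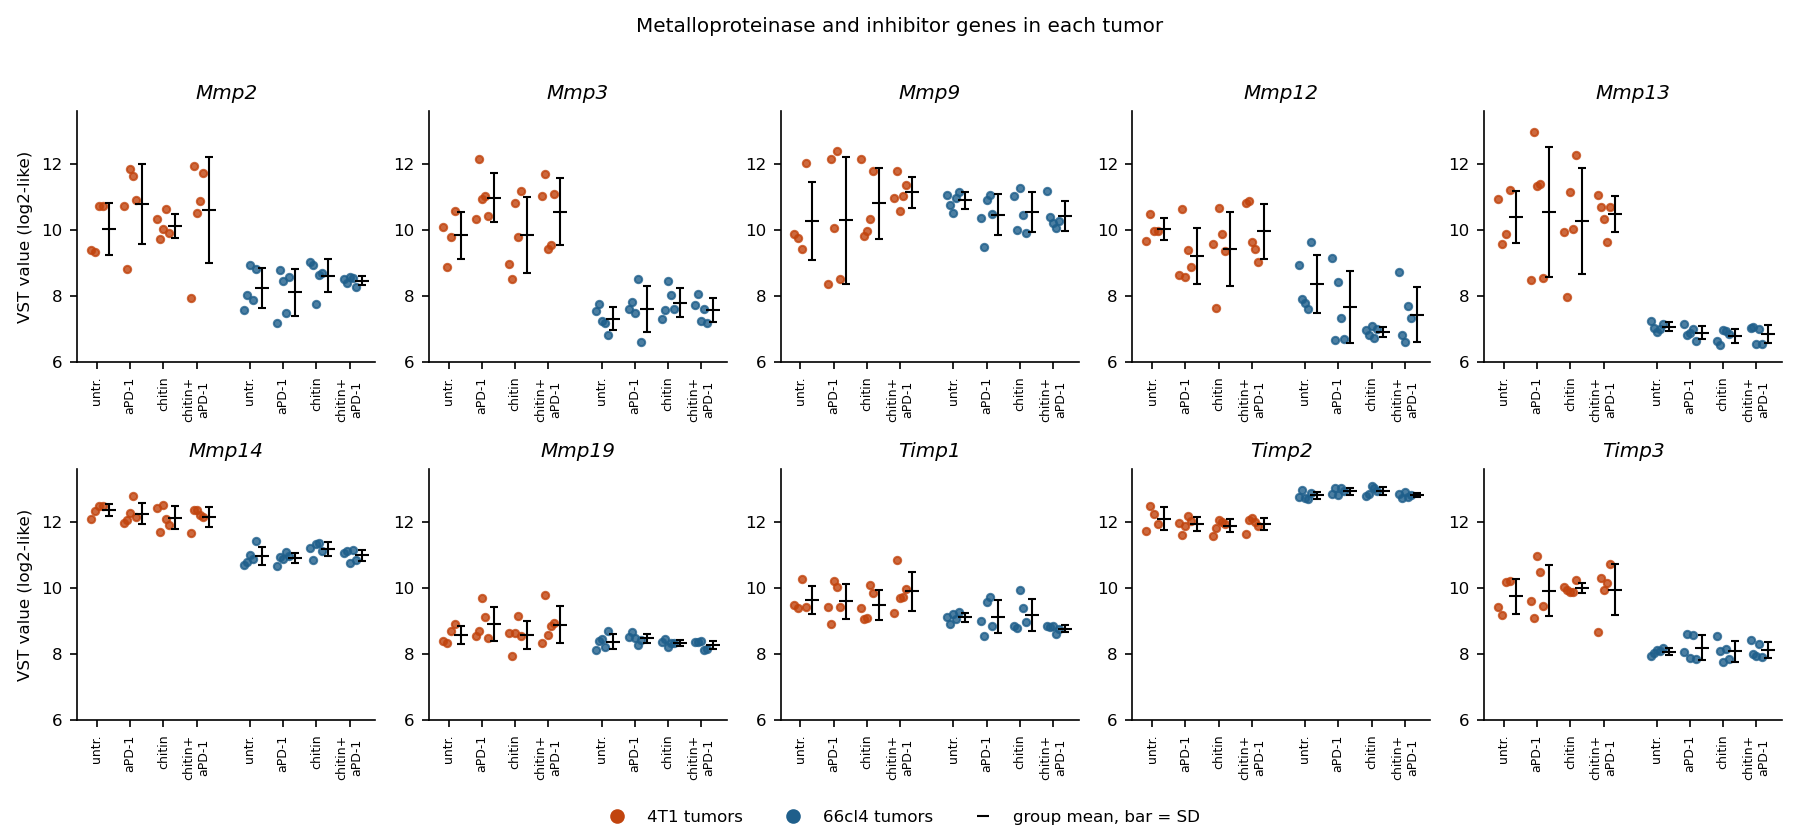
VST value (log2-like, vertical axis) of each of the 10 genes in each of the 39 tumors, by treatment group (untr. = untreated, aPD-1 = anti-PD-1), with 4T1 in orange and 66cl4 in blue and the group mean ± SD in black. For Mmp13, Mmp14 and Timp3 all 4T1 tumors lie above all 66cl4 tumors, for Timp2 all lie below, and for Mmp9 the models overlap.

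When the 4 treatment groups of each model were averaged, 9 of 10 genes were called, 8 higher in 4T1 and Timp2 lower, where 78.8% of all genes were called (40.8% higher, 38% lower). The differences were 3.53 ± 0.30 for Mmp13 (SE of the VST difference, adjusted p = 5.99e-13), 2.74 ± 0.22 for Mmp3 (adjusted p = 3.05e-13), 2.06 ± 0.25 for Mmp12 (adjusted p = 5.59e-09) and 2.03 ± 0.26 for Mmp2 (adjusted p = 1.40e-08). For the remaining MMPs they were 1.21 ± 0.08 for Mmp14 (adjusted p = 8.97e-16), 0.38 ± 0.10 for Mmp19 (adjusted p = 0.00157) and 0.05 ± 0.29 for Mmp9 (adjusted p = 0.881). For the inhibitors they were 1.79 ± 0.14 for Timp3 (adjusted p = 1.96e-13), 0.60 ± 0.13 for Timp1 (adjusted p = 1.27e-04) and -0.90 ± 0.06 for Timp2 (adjusted p = 4.17e-16). The sign of the Mmp9 value turned under quantile normalization and under tumor weights, and it was not called in either.

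Over all 39 tumors, 4 of the 10 genes had no overlap between the models (Mmp13, Mmp14, Timp2 and Timp3), where 17.9% of all genes had none. For Mmp3, 18 of 19 4T1 tumors were above all 66cl4 tumors, and for Mmp2 it was 17 of 19. For Mmp12 it was 9 of 19. Within each of the 4 treatments, the 4T1 mean was higher for 8 genes and lower for Timp2. Mmp9 was higher in 4T1 in 2 of the 4 treatments.

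**Figure D2:**
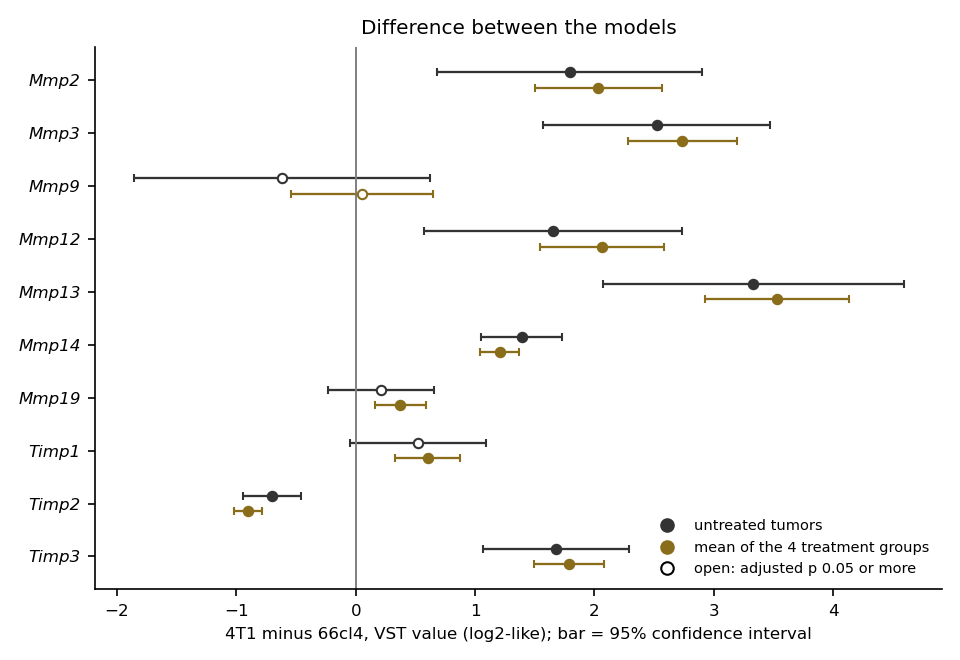
Difference of VST values, 4T1 minus 66cl4 (horizontal axis, log2-like), with 95% confidence intervals, for untreated tumors (black) and for the mean of the 4 treatment groups (brown). Open points have an adjusted p of 0.05 or more. Mmp13 lies farthest to the right at 3.33 and 3.53, Timp2 lies left of 0 at -0.70 and -0.90, and the Mmp9 intervals include 0.

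The share of variance that lay between the models gave another order. It was 87.2% for Timp2, 85.5% for Mmp14, 81.6% for Timp3, 80.2% for Mmp13 and 77.3% for Mmp3. It fell to 61.5% for Mmp2, 58.1% for Mmp12, 34.0% for Timp1 and 25.5% for Mmp19, and was 0.144% for Mmp9, for which 89.7% of the variance lay between tumors of the same group. The share between treatments within models was at most 10.9%, for Mmp12. The spread within groups was larger in 4T1 than in 66cl4 tumors for all 10 genes, as it was for 91.5% of all genes. Within-group SDs of the VST values ran from 0.23 (Timp2) to 1.39 (Mmp13) in 4T1 and from 0.10 (Timp2) to 0.82 (Mmp12) in 66cl4. Mmp13 spanned 134 to 7972 normalized counts across the 19 4T1 tumors, with a median of 1534, and 7.25 to 48.8 across the 20 66cl4 tumors, with a median of 27.9.

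To compare levels between genes, normalized counts were divided by exonic length. By mean, Timp2 was the highest and Timp1 the next highest per kb in both models. The order then differed, with Mmp3, Mmp14 and Mmp13 next in 4T1 (813, 787 and 684 normalized counts per kb) and Mmp9, Mmp14 and Mmp2 next in 66cl4 (421, 327 and 68.3 per kb). Mmp13 ranked 5 of 10 in 4T1 and last in 66cl4, with 9.42 normalized counts per kb. Neighbours in the 4T1 order such as Timp1, Mmp3 and Mmp14 lie within the spread over tumors. By median, Timp1 (668 per kb) was below Mmp14 (770) and Mmp3 (692) in 4T1. Of the summed per-kb level of the 10 genes, Timp2 made up 20.1% ± 7.28 (SD, n = 19) in 4T1 and 56.9% ± 5.16 (SD, n = 20) in 66cl4 tumors. Mmp13 made up 11.1% ± 8.07 and 0.281% ± 0.134, and Mmp3 13.7% ± 6.61 and 1.49% ± 0.837. Mmp9 had 9.84% ± 6.52 and 12.4% ± 3.61, and Timp1 had 15.5% ± 4.82 and 14.0% ± 3.40.

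**Figure D3:**
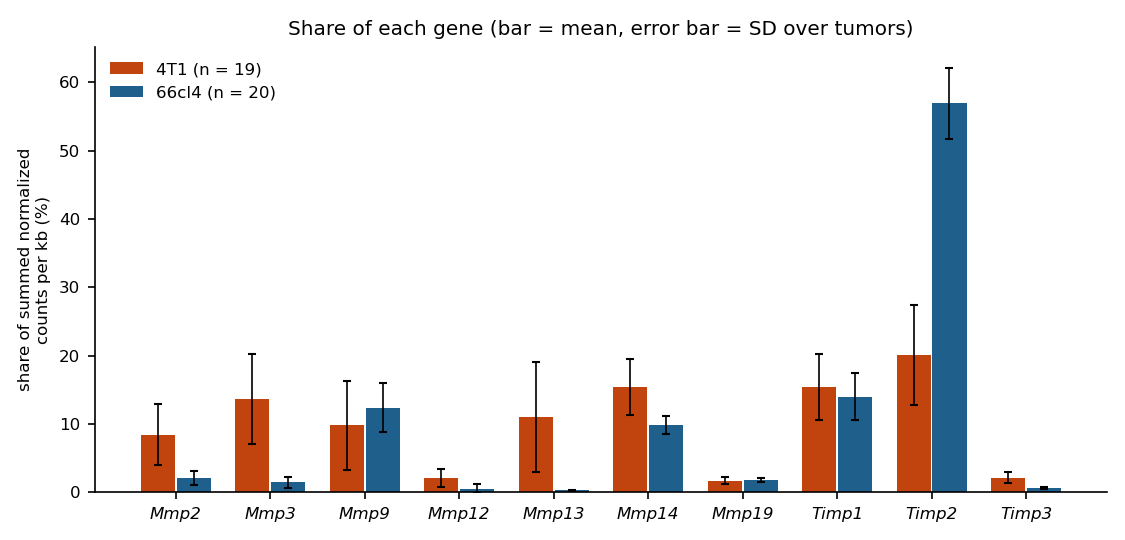
Share of each gene in the summed normalized counts per kb of the 10 genes (vertical axis, percent), as mean and SD over 19 4T1 (orange) and 20 66cl4 (blue) tumors. Timp2 takes 56.9% of the sum in 66cl4 and 20.1% in 4T1, while Mmp13 takes 0.281% and 11.1%.

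Protease and inhibitor were also set against each other in each tumor as the log2 ratio of their normalized counts, without division by length, as a description. The ratio of Mmp14 to Timp2 was 0.25 ± 0.32 (SD, n = 4) in untreated 4T1 and -1.92 ± 0.29 (SD, n = 5) in untreated 66cl4 tumors. Across the other treatment groups its means lay between 0.21 and 0.33 in 4T1 and between -2.09 and -1.81 in 66cl4. The ratio of Mmp2 to Timp2 was -2.23 ± 0.98 and -5.31 ± 0.95 in untreated tumors. The ratio of Mmp9 to Timp1 was 0.71 ± 1.58 and 2.05 ± 0.30. In 4T1 it ran from -0.95 to 2.87 between untreated tumors, which spans all 5 untreated 66cl4 tumors.

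The next comparisons asked whether anti-PD-1, chitin or both changed these genes within a model. None of the 10 genes was called by limma in any of the 12 comparisons within a model, and none was called by limma-voom on the recovered counts. Of all genes, 0% were called in each of these 12 comparisons. In 4T1 tumors none of the 10 genes had an unadjusted p under 0.05 either, where 8.89%, 2.77% and 2.56% of all genes had one for anti-PD-1, chitin and their combination against untreated. For the combination against chitin, against anti-PD-1 and for both chitin groups against both others it was 3.11%, 9.13% and 7.28% of all genes. In 66cl4 tumors, 2 of the 10 genes had such a p for chitin (11.4% of all genes), 1 for the combination against anti-PD-1 (8.3%) and 1 for both chitin groups against both others (15.6%). None had one for anti-PD-1 (5.36%), for the combination against untreated (10.6%) or for the combination against chitin (3.07%).

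Mmp12 in 66cl4 tumors had the smallest p of these comparisons. Its normalized counts were 27.2, 19.3, 36.8, 14.4 and 29.9 in the 5 chitin-treated tumors, against 367, 125, 107, 85.0 and 669 in the 5 untreated ones. All 5 chitin-treated tumors were below all 5 untreated tumors, which held in either direction for 1.68% of all genes. The reads behind the chitin values were 22 to 70 per tumor, in the group with the highest median depth. The means were 25.5 ± 8.81 and 270.5 ± 250 (SD, n = 5 each). The VST difference was -1.45 ± 0.46 (SE, unadjusted p = 0.00510) and did not pass the adjustment (adjusted p = 0.236). With each tumor left out in turn it stayed between -1.64 and -1.14, with adjusted p from 0.125 to 0.591.

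In the other 66cl4 groups, Mmp12 was split between tumors. With anti-PD-1 it had 442, 12.3, 222, 56.3 and 14.3 normalized counts, and with chitin + anti-PD-1 it had 302, 19.6, 10.3, 95.9 and 56.1. Both groups overlapped untreated and chitin-treated tumors. The difference of chitin + anti-PD-1 from untreated was -0.93 ± 0.46 (SE, unadjusted p = 0.0571, adjusted p = 0.491). When both groups that received chitin were set against the other 2 groups, it was -0.83 ± 0.33 (SE, unadjusted p = 0.0189, adjusted p = 0.233). Macrophage markers, for a gene known from macrophages, had a mean VST value of 11.6 in untreated and 11.8 in chitin-treated 66cl4 tumors. Of these 12 markers, 11 had a higher mean with chitin, none was called and none was at 0 in any tumor. Their part in the Mmp12 values was not tested.

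Mmp13 in chitin-treated 66cl4 tumors had 10.6, 7.25, 28.9, 26.9 and 21.3 normalized counts, against 48.8, 32.1, 23.7, 29.6 and 40.0 in untreated tumors. The groups overlapped, and the VST difference was -0.28 ± 0.12 (SE, unadjusted p = 0.0342, adjusted p = 0.388). Mmp19, a widely expressed MMP, had 211, 209, 216, 161 and 169 normalized counts with chitin + anti-PD-1 and 248, 284, 241, 194 and 223 with anti-PD-1 alone in 66cl4. The VST difference was -0.20 ± 0.09 (SE, unadjusted p = 0.0405, adjusted p = 0.579). Timp2 had the smallest p for anti-PD-1 against untreated in 66cl4, at 0.12 ± 0.07 (SE, unadjusted p = 0.0948, adjusted p = 0.911). Timp1 had 338, 324, 338, 265 and 311 normalized counts with chitin + anti-PD-1 and 434, 356, 470, 408 and 489 in untreated 66cl4 tumors. All 5 treated tumors were below all 5 untreated ones, which held in either direction for 2.12% of all genes, and the VST difference of -0.34 ± 0.20 (SE, unadjusted p = 0.107, adjusted p = 0.578) did not pass. Timp1 also had the smallest p for chitin + anti-PD-1 against chitin, at -0.42 ± 0.20 (SE, unadjusted p = 0.0532, adjusted p = 1).

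In 4T1 tumors the smallest p belonged to Mmp3 for anti-PD-1 against untreated. Its normalized counts were 1154, 4459, 1853, 1977 and 1246 with anti-PD-1 and 974, 347, 764 and 1400 without, and 3 of 5 treated tumors were above all untreated ones. The VST difference was 1.14 ± 0.57 (SE, unadjusted p = 0.0615, adjusted p = 0.564). For chitin it was Timp2 at -0.22 ± 0.16 (SE, adjusted p = 1), and for chitin + anti-PD-1 it was Mmp3 at 0.71 ± 0.57 (SE, adjusted p = 1). Against chitin alone, chitin + anti-PD-1 had its smallest p for Timp1 (0.40 ± 0.30, SE, adjusted p = 1.00), and against anti-PD-1 alone for Mmp12 (0.73 ± 0.49, SE, adjusted p = 0.664). Both chitin groups against both others had it for Mmp9, at 0.69 ± 0.54 (SE, adjusted p = 0.851). The wide intervals in 4T1 do not show that the treatments left these genes alone. For Mmp13 and chitin against untreated, the 95% confidence interval ran from -1.90 to 1.65.

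Mmp9 in 4T1 tumors differed in spread. With anti-PD-1 it had 212, 4415, 942, 5218 and 244 normalized counts, and with chitin + anti-PD-1 it had 1872, 3382, 1383, 1946 and 2533. The means were close, at 2206 and 2223, while 3 anti-PD-1 tumors were below all tumors of the combination and 2 were above. The VST difference of 0.84 ± 0.74 (SE, adjusted p = 0.750) became 1.88 ± 0.61 (SE, adjusted p = 0.0467) when tumors were weighted by their agreement with the fit. This was the only treatment call among the 10 genes under any alternative run. With these weights 2127 of all 14318 genes were called in this comparison, against 0 without them, so the call is not particular to Mmp9. Spread itself was not tested. The VST SD of Mmp9 was 1.92 with anti-PD-1 and 0.46 with the combination, and that of Mmp13 was 1.97 and 0.54.

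Whether a treatment acted differently in the models was tested as a difference of differences. None of the 10 genes was called for anti-PD-1, where 0% of all genes were called and 7.27% had an unadjusted p under 0.05, and none had such a p among the 10. For groups with chitin set against groups without it, again none of the 10 was called, against 0.0978% of all genes, and none had an unadjusted p under 0.05, against 13.2%. The smallest p was that of Timp2 for anti-PD-1, at -0.30 ± 0.17 (SE, adjusted p = 0.715), and that of Mmp14 for chitin, at -0.32 ± 0.16 (SE, unadjusted p = 0.0555, adjusted p = 0.391).

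**Figure D4:**
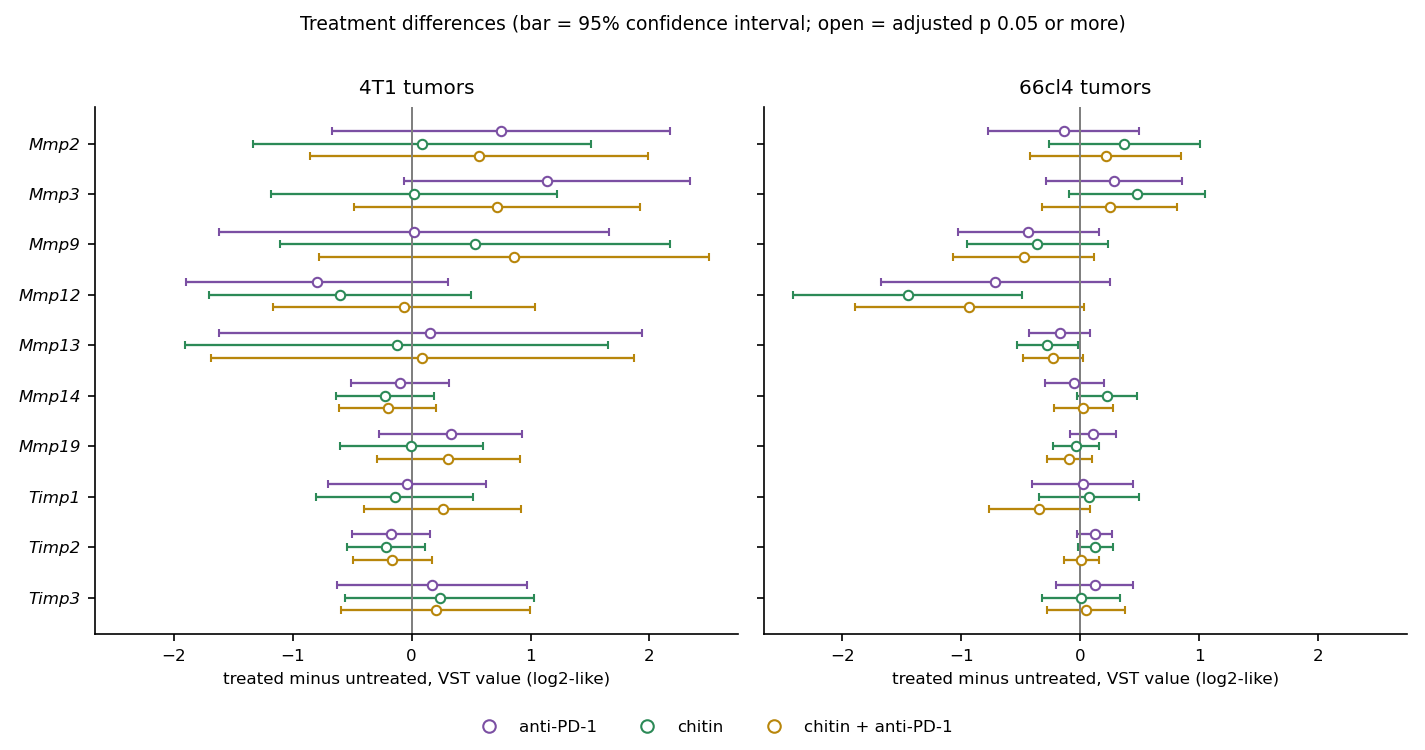
Difference of VST values from untreated tumors (horizontal axis, log2-like) with 95% confidence intervals, for anti-PD-1 (purple), chitin (green) and chitin + anti-PD-1 (yellow) in 4T1 (left) and 66cl4 tumors (right). All points are open because no adjusted p is under 0.05, and Mmp12 with chitin in 66cl4 lies farthest from 0, at -1.45.

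Other genes of the pathway were taken from 4 lists. Of 50 such genes in the table, 28 were higher, 12 lower and 10 not called in untreated 4T1 tumors, where 28.7% of all genes were higher and 27.1% lower. The counts of each list below are read against the same shares. Of the other MMPs, 9 of 16 were in the table, 7 of them higher in 4T1. Mmp8, the neutrophil collagenase, had a VST difference of 0.59 ± 0.14 (SE, adjusted p = 5.65e-04), with 30.5 ± 14.5 and 4.22 ± 2.77 normalized counts (SD, n = 4 and 5). Mmp28 was the one that was lower, and Mmp24 was not called.

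Of 16 activators and binding partners in the table, 11 were higher and 2 lower. Tenascin-C (Tnc), a matrix protein of tumor stroma, had the largest rise at 4.30 ± 0.55 (SE, adjusted p = 4.16e-08). Lcn2 followed at 4.18 ± 0.61 (SE, adjusted p = 5.06e-07), with 2419 ± 600 against 40.1 ± 22.8 normalized counts. Furin, which cleaves the Mmp14 zymogen, was higher by 1.28 ± 0.16 (SE, adjusted p = 2.82e-08). The urokinase Plau and its receptor Plaur were higher by 0.89 ± 0.36 (adjusted p = 0.0370) and 0.87 ± 0.24 (adjusted p = 0.00244).

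Of 11 further inhibitors and clearance genes, 5 were higher and 5 lower. Thbs2, a matricellular protein that promotes MMP clearance, was higher by 3.09 ± 0.47 (SE, adjusted p = 1.25e-06). Reck, a membrane-anchored MMP inhibitor, was lower with a difference of -0.54 ± 0.14 (SE, adjusted p = 0.00181), and Pcolce, an enhancer of procollagen processing, was lower at -1.86 ± 0.21 (SE, adjusted p = 3.88e-09). Of 14 ADAM and ADAMTS proteases, 5 were higher and 4 lower, and the aggrecanases Adamts5 (-2.90 ± 0.38, SE, adjusted p = 7.06e-08) and Adamts1 (-2.10 ± 0.36, SE, adjusted p = 7.63e-06) had the largest falls of all 4 lists.

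Markers of the cell types that a tumor can hold were compared in the same way, against 28.7% of all genes higher and 27.1% lower in untreated 4T1 tumors. In untreated tumors, 11 of 12 epithelial markers were higher in 4T1 with a median VST difference of 3.01, and none was lower. Over all 20 66cl4 tumors of any treatment, 5 epithelial markers (Krt19, Cldn3, Cldn4, Cldn7 and Esrp1) were at 0 in at least 1 tumor. Among untreated tumors alone, 1 epithelial marker was at 0 in some tumor in each model. Of 9 neutrophil markers, 7 were higher in 4T1, with summed normalized counts of 938 to 1831 against 327 to 486. Ly6g, Elane and Mpo of that list were not in the table, and Mmp8 stands on this list too. Over all 66cl4 tumors, 4 of the 9 neutrophil markers (Retnlg, Mmp8, Camp and Ngp) were at 0 in at least 1 tumor. Of 12 macrophage markers, 6 were lower in 4T1. Of 12 fibroblast markers, 5 were higher and 3 lower, with summed counts of 27972 to 100010 in 4T1 and 11938 to 21716 in 66cl4, and none was at 0. Endothelial markers (5 of 10 higher), T cell markers (5 of 9 higher), skeletal muscle markers (1 of 10 higher) and adipocyte markers (0 of 10) had no lower call. The fibroblast counts of 5 and 3 of 12 lie near the shares over all genes. The part of these cell types in the model differences was not tested.

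Within groups, tumor-to-tumor deviations of VST values from the group mean were compared over the 39 tumors. These correlations are descriptions over tumors that share library preparation and differ in depth and cell content. Mmp2 followed the mean of the 12 fibroblast markers closely, with Pearson's r = 0.95 and Spearman's rho = 0.92. It stayed at 0.92 without the 2 tumors farthest out, and it was 0.98 in 4T1 and 0.83 in 66cl4. The 3 genes most like it were Col3a1 (r = 0.93), Col1a2 (0.93) and Aebp1 (0.92), of which the collagens are also fibroblast markers. Timp3 (r = 0.85, rho = 0.73) and Mmp19 (r = 0.77, rho = 0.84) also followed the fibroblast markers, at 0.90 and 0.78 in 4T1 and at 0.52 and 0.65 in 66cl4. Fibroblast markers were not the only list they moved with. Mmp2 had r = 0.69 (rho = 0.39) with macrophage and 0.66 (rho = 0.39) with endothelial markers. For Timp3 these were 0.66 (rho = 0.47) and 0.67 (rho = 0.53). The lowest fibroblast marker value in 4T1 (8.88, chitin + anti-PD-1) came with the lowest Mmp2 level of that model (132 normalized counts).

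Among the 45 pairs of the 10 genes, r ran from -0.30 to 0.78 with a median of 0.29. Mmp2 and Timp3 had the highest value (r = 0.78, rho = 0.64, 0.63 without the 2 tumors farthest out), at 0.89 in 4T1 and 0.27 in 66cl4. Mmp3 and Mmp13 came next (r = 0.74, rho = 0.83, 0.66 without the 2 tumors farthest out), with 0.80 in 4T1 and 0.63 in 66cl4. Mmp9 and Mmp13 had r = 0.68 (rho = 0.51), at 0.72 in 4T1 and 0.33 in 66cl4. Mmp12 and Mmp13 of the chromosome 9 cluster had r = 0.47 (rho = 0.40), while Mmp3 and Mmp12 had 0.37 (rho = 0.29). Timp1 and the fibroblast markers had r = 0.82 in 4T1 and -0.63 in 66cl4.

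**Figure D5:**
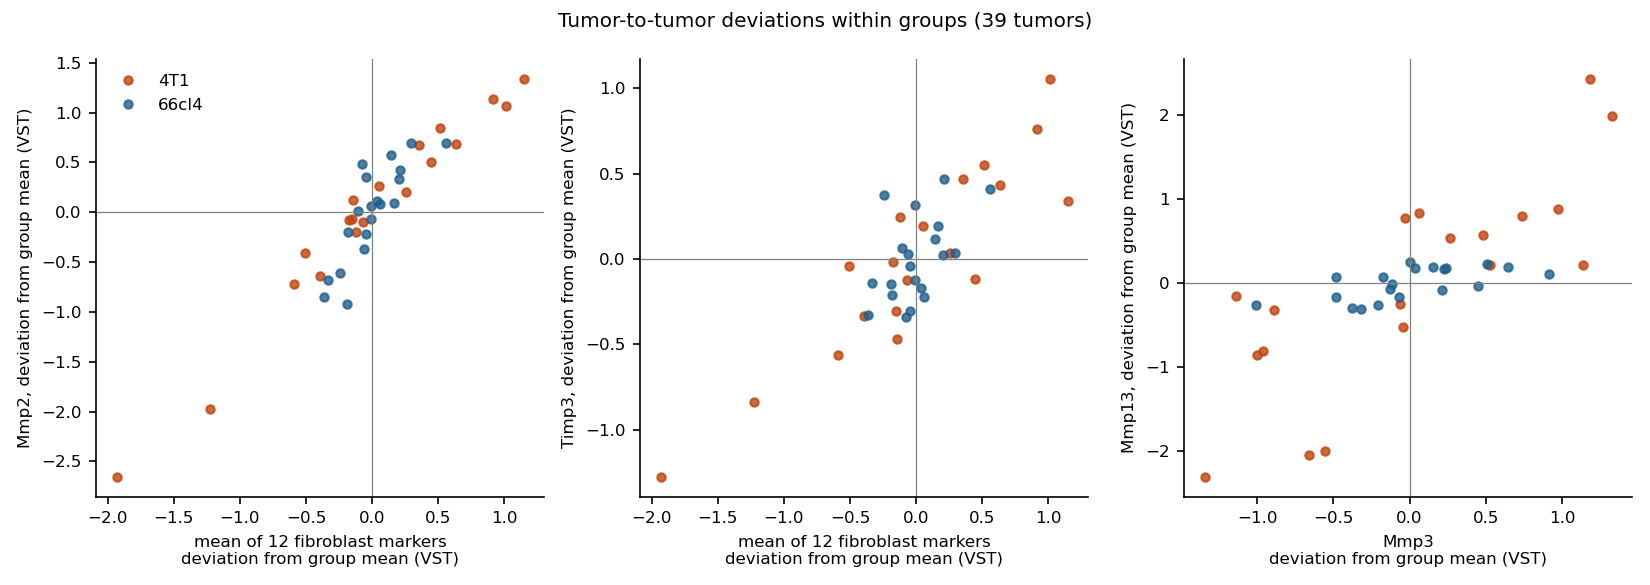
Deviation from the group mean in VST units of Mmp2 (left) and Timp3 (middle) against the mean of 12 fibroblast markers, and of Mmp13 against Mmp3 (right), for 39 tumors with 4T1 in orange and 66cl4 in blue. Mmp2 lies close to a line (r = 0.95), Timp3 more loosely (r = 0.85), and for Mmp13 and Mmp3 (r = 0.74) the 66cl4 tumors spread much less along the Mmp13 axis.

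The genes closest to the other members by the same measure were as follows. For Mmp3 they were C1s1 (r = 0.77), Pi15 and Prdm1, for Mmp9 they were Ephb6 (0.80), Mboat1 and Plau, and for Mmp12 they were Adam8 (0.83), Lgals3 and Hilpda. Some of these likenesses rested on 4T1. Pi15 had r = 0.88 in 4T1 and 0.15 in 66cl4, Mboat1 0.91 and -0.37, and Plau 0.91 and 0.070. Mmp13 was closest to AA467197 (0.88), Nos2 (0.88) and Grem1 (0.84), although the last had r = 0.93 in 4T1 and -0.60 in 66cl4. Mmp14 was closest to Lrp10 (0.78), Slc39a7 and Prrc1, and Mmp19 to Clip3 (0.85), Adamts2 and Creb3l1. Timp1 was closest to Gpc4 (0.76), Pcdh19 and Mfge8, and Timp2 to Zdhhc9 (0.78), Dlgap4 and Chpf. Timp3 was closest to Syn3 (0.96), Bgn (0.89) and Mfap4 (0.88).

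Timp3 lies inside Syn3 on the opposite strand, at chr10:86300412-86349505 within chr10:86048746-86498926 (GRCm38.p6). Syn3 had a median of 115 normalized counts. The counting used strand information, and how many Syn3 reads came from Timp3 transcripts was not tested, so the Syn3 likeness is uncertain. Timp1 lies in the same way inside Syn1, for which r was 0.47 at a median of 30.7 normalized counts.

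Mmp12 moved against 2 marker lists, with r = -0.55 (rho = -0.51) for T cell markers and -0.51 (rho = -0.46) for macrophage markers. Without the 2 tumors farthest out they were -0.43 and -0.40, and the signs were the same in both models. Mmp9 had r = -0.37 (rho = -0.28) with neutrophil markers and -0.21 (rho = -0.11) with macrophage markers, the cells it is best known from. It was -0.43 and -0.26 in 4T1 and 0.0049 and 0.12 in 66cl4. With epithelial markers Mmp9 had r = 0.60 (rho = 0.51, 0.46 without the 2 tumors farthest out), at 0.85 in 4T1 and 0.015 in 66cl4.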

How the data were processed

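RNA-sequencing values of 39 primary tumors were analysed. The authors prepared stranded libraries, mapped them to mm10 by HISAT2, obtained counts for each gene with summarizeOverlaps (strand-aware), retained genes above 10 reads in at least 10% of tumors, and deposited variance-stabilized values (DESeq2) on a log2-like scale. The annotation and tool versions are not given in the sources used here. The deposited values held 14318 genes, which is not the number the paper states after its filter. Every gene was above 10 reads in at least 8 of the 39 tumors, which is more than the stated 10%. The lowest deposited log2 value, 6.051442, stands for 0 reads, and undoing the transformation gave whole reads for 100% of values within 0.01 reads, which were divided by the size factors to give normalized counts.

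VST values were fitted across all 14318 genes with limma 3.58.1 (R 4.3.3; moderated test with trend, two-sided, Benjamini-Hochberg over all genes). Comparisons of models used 8 groups in one fit, and treatments used the 4 groups of a model. The fits were tested on simulated data. Tumors of a group differed by more than sampling noise (smallest chi-square per degree of freedom 2.85), and the labels number the tumors without stating separate animals, so p-values measure the spread between these samples. The paper inoculated the third mammary gland pair of each mouse, so tumors of a group may come from the same mouse. The fits treated each tumor as independent. Exonic lengths came from GENCODE vM21 and promoter windows and positions from RefSeq (GRCm38.p6). RefSeq held 14309 of the 14318 gene identifiers.

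The members and gene lists were chosen with earlier results of these data known. All 10 members are described in both model comparisons, and elsewhere those with an unadjusted p under 0.05, or the one with the smallest p. Of the related lists, the 3 largest rises and falls are named plus Mmp8, Lcn2, Plau, Plaur, Reck and Furin, and the 3 genes most like each member. Mmp9 in the combination against anti-PD-1 and with markers, Timp1 in the 66cl4 combination, the Mmp13 interval, Mmp24, Mmp28 and the Syn genes were named after their values were seen. Alternatives were a filter on low genes, quantile normalization, limma-voom on recovered counts, tumor weights, tumor number as a block, fits of only the compared groups, and leaving out each tumor.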

Additional observations from a re-analysis of the deposited data

Results flagged for a closer look

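Timp1 in untreated 4T1 tumor 4 stood apart from the other 3 tumors of its group. It had 1097 normalized counts against 541 to 593 in the others, and its gap to the nearest tumor was 0.874 of the group's whole VST range (0.87449), above the critical value for 4 samples. It was the 1 flag among 80 groups of 4 or 5 tumors (10 genes in 8 groups), where chance flags about 1 in 20.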

How the results depend on the processing

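The 9 members called between model averages kept this count under every alternative run, and the 7 between untreated models kept theirs except that it was 8 when only the compared groups were fitted, with Timp1 added (adjusted p = 0.0227). Leaving out each tumor in turn (242 runs over the 16 comparisons) changed no count of members. The filter on the lowest 25% of genes removed 1 member, so that 9 were tested, from the 66cl4 treatment fits. With tumor weights, 1 member (Mmp9, adjusted p = 0.0467) was called for 4T1 chitin + anti-PD-1 against anti-PD-1. In that run 2127 of all 14318 genes were called. The Mmp9 difference between model averages (0.05) turned to -0.035 with quantile normalization and -0.39 with tumor weights, and ran from -0.10 to 0.17 without single tumors, turning in 6 runs.

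Counts over all genes were less stable. With tumor weights, 960, 2127 and 297 genes were called in 4T1 for anti-PD-1, for the combination against anti-PD-1 and for chitin-containing groups, 2 and 185 in 66cl4 for the combination against anti-PD-1 and for chitin-containing groups, and 331 and 1004 for the differences between models, where 0 were called without weights except 14 in the last. That last count was 39 with quantile normalization and 8 with the filter. Fitting only the compared groups called 1 gene for 66cl4 combination against chitin. Without 4T1 anti-PD-1 tumor 2, 80, 202, 86 and 677 genes were called for 4T1 anti-PD-1, the combination against it and both differences between models, the last running from 0 to 677 over such runs and giving 282 without 4T1 chitin + anti-PD-1 tumor 5. Without 66cl4 untreated tumor 3, 269 were called for chitin-containing groups and 25 for chitin. The cause was not tested.

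Whether tumor numbers pair the samples of particular groups was not tested. Over 133 pairs sharing a tumor number, correlations of deviations had a median of 0.00878. They ranged from -0.39 to 0.54, with 37 above 0.1. For the 57 pairs within a model the median was 0.0139, with 22 above 0.1. Between 66cl4 anti-PD-1 and 66cl4 untreated tumors they were 0.45, 0.29, 0.54, 0.28 and -0.093 for tumors 1 to 5. With tumor number as a replicate block the members called stayed 7, 9 and 0 in all others, and over all genes 1 and 1 were called in 4T1 for the combination against untreated and against anti-PD-1, 2, 7 and 16 in 66cl4 for chitin, the combination and chitin-containing groups, and 104 for the chitin difference between models. Depth limits Mmp13 in 66cl4 (9 to 55 reads) and Mmp12 in chitin-treated 66cl4 tumors (22 to 70 reads).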
